A study of Mus musculus and Rattus norvegicus with 6 samples.

Results

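The expression of 10 genes that govern cell survival and death, the BCL2 family members Bcl2, Bcl2l1, Mcl1, Bcl2l11, Bbc3, Pmaip1, Bax and Bak1 and the inhibitors of apoptosis Birc2 and Birc3, was followed after knockdown of YAP and TAZ in mouse smooth muscle cells (SMCs). The genes form a set named by symbol for their function, proposed with earlier results of these data known, and all 10 were found among the 55573 genes of the table. Bulk RNA-seq covered 2 control libraries, in which SMCs received a negative control siRNA (siCo), and 2 libraries in which YAP and TAZ were knocked down by siRNA (siYAP/TAZ). The comparison asks which transcripts of SMCs depend on YAP and TAZ. The labels give a wild-type genotype for all 4, and siRNAs were delivered with a lipid reagent. The paper lists 2 pools of siRNAs against YAP and TAZ. The labels do not say which pool each siYAP/TAZ library received, or whether both received the same pool. Sample titles and column names number these libraries differently. The labels name the cells MOVAS, an immortalised aortic line, whereas the legends name primary penile SMCs. Nothing says whether libraries within a group were separate cultures, and p-values measure only how far these libraries vary, possibly for technical reasons.

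The BCL2 family decides whether the outer membrane of mitochondria is opened. The pro-survival members Bcl2, Bcl2l1, which encodes BCL-XL, and Mcl1 restrain the effectors Bax and Bak1. The BH3-only members Bcl2l11 (BIM), Bbc3 (PUMA) and Pmaip1 (NOXA) bind the pro-survival proteins and release the effectors, which form pores through which cytochrome c escapes. Birc2 and Birc3 encode cIAP1 and cIAP2, inhibitor of apoptosis proteins (IAPs) that act as ubiquitin ligases at TNF receptors. In vascular smooth muscle this balance is known for its part in cell loss during injury.

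The genes moved in both directions. In siYAP/TAZ cells 4 of the 10 were higher (Mcl1, Bcl2l11, Bax and Birc3), 3 were lower (Bcl2, Bcl2l1 and Bak1) and 3 did not pass the test (Bbc3, Pmaip1 and Birc2). Pro-survival genes, BH3-only genes, effectors and IAPs each held members that differed in their call. The test was edgeR's quasi-likelihood test on the counts of all 15479 genes that passed a filter on low counts, with Benjamini-Hochberg adjustment and a threshold of 0.05. It called 55.4% of all genes tested, 27.6% higher and 27.7% lower, and the 7 of 10 called here lie near that background. FPKM (counts scaled to exon length and library total) did not overlap between the groups for 8 of the 10 genes, 5 of them higher and 3 lower, against 77.2% of all genes tested (35.0% higher and 42.2% lower). None of the 10 changed by 2-fold. Of the genes tested 10.3% were called at 2-fold or more, and none among 10 genes lies near that share. Their median log2 fold change was 0.06, against -0.000329 for all genes tested.

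**Figure D1:**
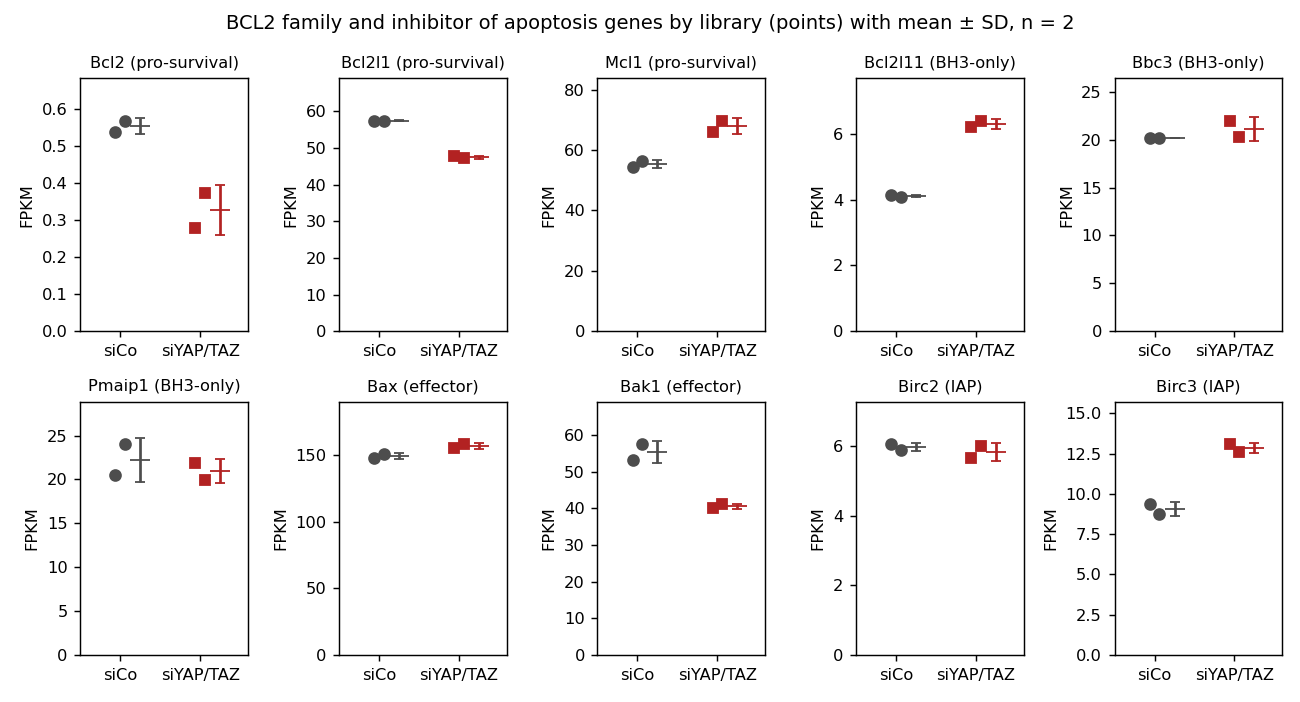
FPKM of the 10 genes in the 2 siCo libraries (circles) and the 2 siYAP/TAZ libraries (squares), with the mean and SD of each group beside the points. Bcl2l11 went from a mean of 4.11 to 6.31 FPKM, Birc3 from 9.05 to 12.9 FPKM and Bak1 from 55.4 to 40.6 FPKM, and the groups overlap for Pmaip1 and Birc2.

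Libraries held 17192309 to 18751368 counts. The knockdown was present in each siYAP/TAZ library, with Yap1 at 21.8 and 23.5 FPKM in siCo and at 1.87 and 2.03 FPKM in siYAP/TAZ cells and Wwtr1, which encodes TAZ, at 56.5 and 59.1 FPKM in siCo and at 16.8 and 17.6 FPKM in siYAP/TAZ cells. In what follows, paired values joined by "against" are those of siCo and then of siYAP/TAZ libraries. Of the smooth muscle markers, Acta2 was high, at 138 and 142 FPKM against 68.8 and 66.1 FPKM, while Myh11, a marker of mature smooth muscle, was low, at 1.29 and 1.29 FPKM against 1.07 and 0.834 FPKM. Summed FPKM of the 8 smooth muscle markers were 209 and 213 against 109 and 105, with 1 higher and 5 lower. Markers of other cells were present too. Summed FPKM of the 7 fibroblast markers were 329 and 269 against 417 and 392, with 6 higher and 1 lower, and those of the 8 endothelial markers were 90.1 and 90.6 against 95.4 and 98.4, with 5 higher and 2 lower. Of 10 macrophage markers 5 were at 0 in all libraries, among them Tyrobp and Adgre1, and nearly all of the rest came from Cd68, with sums of 8.23 and 8.75 against 11.1 and 14.2 and Cd68 called higher. The 7 lymphocyte markers summed to at most 0.289 FPKM, with 4 at 0, Cd3e among them. These marker shifts moved with the groups, and their part in the results was not tested. In bulk RNA, fewer cells of a type and less RNA per cell cannot be told apart.

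Among the pro-survival genes, Mcl1 rose and Bcl2l1 and Bcl2 fell. Mcl1 (ENSMUSG00000038612, chr3:95658788-95663176, plus strand), whose short-lived protein ties survival to ongoing synthesis, was at 54.4 and 56.4 FPKM in siCo and at 66.1 and 69.7 FPKM in siYAP/TAZ cells. Both siYAP/TAZ libraries were above both siCo libraries, at 1.26-fold (log2 fold change 0.34, standard error 0.0456, adjusted p = 1.81e-06 from edgeR). Bcl2l1 (ENSMUSG00000007659, chr2:152780668-152831728, minus strand), a long-lived survival factor, was at 57.5 and 57.3 FPKM in siCo and at 47.7 and 47.2 FPKM in siYAP/TAZ cells. Its replicates were close together and its groups apart, at 1.17-fold lower (log2 fold change -0.23, standard error 0.0423, adjusted p = 9.09e-05 from edgeR).

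Bcl2 (ENSMUSG00000057329, chr1:106538178-106714274, minus strand), the founding member of the family, was scarce. It had 91 and 94 counts in siCo and 48 and 59 counts in siYAP/TAZ cells, or 0.540 and 0.569 FPKM against 0.280 and 0.375 FPKM. Both siYAP/TAZ libraries were below both siCo libraries, at 1.65-fold lower (log2 fold change -0.72, 95% interval from -1.17 to -0.27, adjusted p = 0.00743 from edgeR). This call was lost in DESeq2 (adjusted p = 0.0950) and in edgeR without siYAP/TAZ replicate 1 (log2 fold change -0.52, adjusted p = 0.130).

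The make-up of the pro-survival transcripts shifted more than their sum. Over 8 genes, which add Bcl2l2, Bcl2l10 and 3 Bcl2a1 genes to the 3 members, the summed level was 134 and 134 FPKM in siCo and 135 and 138 FPKM in siYAP/TAZ cells. Mcl1 made up 40.7% and 42.0% in siCo and 49.1% and 50.7% in siYAP/TAZ cells. Bcl2l1 went the other way and made up 42.9% and 42.7% in siCo and 35.4% and 34.3% in siYAP/TAZ cells. Bcl2l2, which encodes BCL-W, took 14.8% to 16.0% in all 4 libraries, and Bcl2 took at most 0.424%.

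The promoters of Mcl1 and Bcl2l1 are shown because these abundant genes moved in opposite directions and were the 2 members with a match to the TEAD motif, TEAD factors being the DNA-binding partners of YAP and TAZ. Gene positions are those of the table, on mm10. Each window spans 250 bases before to 50 bases after an annotated start, read 5′ to 3′ on the strand of the gene, from RefSeq on GRCm38.p6. Windows were found for 9 of the 10 genes, 15 in all. Both strands were searched for TEAD (GGAATG), AP-1 (TGANTCA), IRF (GAAANNGAAA), FOXO (GTAAACA) and the NF-kB and p53 half-site motifs, and capitals mark a match. Of 32851 promoter windows in the mouse, 14.7% held the TEAD motif, 7.81% AP-1, 3.44% IRF, 3.65% FOXO, 4.51% NF-kB and 8.36% the p53 half-site.
Mcl1 (chr3:95658471-95658770, plus strand): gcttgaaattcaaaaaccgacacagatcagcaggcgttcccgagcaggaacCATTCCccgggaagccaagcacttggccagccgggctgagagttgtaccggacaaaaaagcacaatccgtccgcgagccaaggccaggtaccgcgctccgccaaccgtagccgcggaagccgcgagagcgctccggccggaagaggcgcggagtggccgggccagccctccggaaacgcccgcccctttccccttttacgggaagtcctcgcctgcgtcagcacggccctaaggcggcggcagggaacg
Bcl2l1 (chr2:152831679-152831978, minus strand): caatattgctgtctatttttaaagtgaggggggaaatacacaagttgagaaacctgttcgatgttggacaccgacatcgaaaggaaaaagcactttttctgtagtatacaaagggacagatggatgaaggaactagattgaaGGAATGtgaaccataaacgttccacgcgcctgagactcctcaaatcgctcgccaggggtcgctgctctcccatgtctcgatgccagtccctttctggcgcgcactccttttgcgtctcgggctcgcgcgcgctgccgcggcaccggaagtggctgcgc
In Mcl1 the match starts 199 bases before the start and reads CATTCC, the motif on the opposite strand. In Bcl2l1 it starts 108 bases before the most upstream of 3 starts. A second Bcl2l1 window held an NF-kB match, and the Bax window held a p53 half-site. Neither TEAD match overlaps another motif, and a match describes only the letters of the window.

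Among the BH3-only genes, Bcl2l11 rose and the others did not pass. Bcl2l11 (ENSMUSG00000027381, chr2:128126038-128162547, plus strand), whose product binds every pro-survival member, was at 4.14 and 4.09 FPKM in siCo and at 6.21 and 6.41 FPKM in siYAP/TAZ cells. The groups were far apart relative to their replicates, at 1.58-fold (log2 fold change 0.66, 95% interval from 0.52 to 0.80, adjusted p = 4.41e-08 from edgeR), the largest increase of the 10. Bbc3 (ENSMUSG00000002083, chr7:16308393-16318205, plus strand), a classical p53 target, was at 20.2 and 20.2 FPKM in siCo and at 22.0 and 20.3 FPKM in siYAP/TAZ cells. Its groups did not overlap but lay close, and the change did not pass (adjusted p = 0.174 from edgeR, interval from 0.979-fold to 1.19-fold). Pmaip1 (ENSMUSG00000024521), whose product binds mainly MCL1, was at 20.5 and 24.0 FPKM in siCo and at 21.9 and 20.0 FPKM in siYAP/TAZ cells. Its groups overlapped (adjusted p = 0.652 from edgeR, interval from 0.875-fold to 1.08-fold).

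Bcl2l11 remained a small share of the BH3-only transcripts. Over 8 such genes (with Bad, Bid, Bik, Bmf and Hrk) the summed level was 74.0 and 78.2 FPKM in siCo and 83.4 and 81.4 FPKM in siYAP/TAZ cells, and Bcl2l11 made up 5.59% and 5.23% in siCo and 7.45% and 7.88% in siYAP/TAZ cells. Its promoter is shown because it held the FOXO motif, FOXO factors being known activators of this gene. A window of Bbc3, which did not pass the test, also held a match. Whether FOXO factors took part in the rise of Bcl2l11 was not tested.
Bcl2l11 (chr2:128125788-128126087, plus strand): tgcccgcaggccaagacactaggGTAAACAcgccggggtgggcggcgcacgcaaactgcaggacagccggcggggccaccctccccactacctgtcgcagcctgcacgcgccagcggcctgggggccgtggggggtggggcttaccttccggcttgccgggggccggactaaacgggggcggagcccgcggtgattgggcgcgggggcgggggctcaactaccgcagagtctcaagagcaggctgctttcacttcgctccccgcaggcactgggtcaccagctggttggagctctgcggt
The match starts 227 bases before the start, and a second window of the gene held none of the motifs. The Bbc3 match starts 167 bases before the annotated start, on the opposite strand, and another Bbc3 window held NF-kB matches. Foxo1 was at 2.37 and 2.22 FPKM against 2.58 and 2.53 FPKM. Its groups did not overlap, but the change did not pass (adjusted p = 0.0718 from edgeR). Foxo3 was at 14.4 and 14.0 FPKM against 14.2 and 15.2 FPKM, with overlapping groups, and did not pass either (adjusted p = 0.121 from edgeR).

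The effectors parted. Bak1 (ENSMUSG00000057789, chr17:27019810-27029009, minus strand), which sits in the outer mitochondrial membrane, was at 53.2 and 57.5 FPKM in siCo and at 40.1 and 41.1 FPKM in siYAP/TAZ cells. Both siYAP/TAZ libraries were below both siCo libraries, at 1.32-fold lower (log2 fold change -0.40, standard error 0.0514, adjusted p = 8.56e-07 from edgeR). Bax (ENSMUSG00000003873, chr7:45461697-45466898, minus strand), which moves from the cytosol to mitochondria on activation, was the most abundant of the 10, at 148 and 151 FPKM in siCo and at 155 and 158 FPKM in siYAP/TAZ cells. Its groups were apart but close, at 1.08-fold (log2 fold change 0.12, 95% interval from 0.03 to 0.20, adjusted p = 0.0272 from edgeR). This call ended in 6 of 11 alternatives. Adjusted p was 0.0972 in DESeq2, 0.164 in edgeR with library totals and 0.1465 in limma, and in edgeR it was 0.0597 without siCo replicate 1, 0.0865 without siYAP/TAZ replicate 1 and 0.166 without siYAP/TAZ replicate 2. With the related Bok, the effectors summed to 227 and 234 FPKM in siCo and 224 and 225 FPKM in siYAP/TAZ cells, of which Bax took 65.1% and 64.4% in siCo and 69.4% and 70.3% in siYAP/TAZ cells.

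Of the cIAP genes, Birc3 rose and Birc2 did not pass. Birc3 (ENSMUSG00000032000, chr9:7848699-7873186, minus strand), an NF-kB target, was at 9.36 and 8.74 FPKM in siCo and at 13.1 and 12.6 FPKM in siYAP/TAZ cells. The groups were well apart, at 1.47-fold (log2 fold change 0.55, standard error 0.0630, adjusted p = 1.73e-07 from edgeR). Birc2 (ENSMUSG00000057367, chr9:7818227-7837064, minus strand), its paralog, was at 6.06 and 5.90 FPKM in siCo and at 5.66 and 6.02 FPKM in siYAP/TAZ cells. Its groups overlapped (adjusted p = 0.933 from edgeR, interval from 0.893-fold to 1.13-fold). With Xiap, an IAP that binds caspases, these genes summed to 27.4 and 26.9 FPKM in siCo and 36.7 and 37.3 FPKM in siYAP/TAZ cells.

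The promoters of these neighbouring paralogs are set side by side because their calls differed.
Birc2 (chr9:7837008-7837307, minus strand): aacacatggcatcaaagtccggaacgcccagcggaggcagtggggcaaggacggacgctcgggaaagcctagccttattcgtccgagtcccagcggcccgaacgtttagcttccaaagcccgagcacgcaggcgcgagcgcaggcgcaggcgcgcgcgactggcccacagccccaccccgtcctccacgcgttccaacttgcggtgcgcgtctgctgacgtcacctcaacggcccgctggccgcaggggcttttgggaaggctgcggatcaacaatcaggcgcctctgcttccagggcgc
Birc3 (chr9:7873121-7873420, minus strand): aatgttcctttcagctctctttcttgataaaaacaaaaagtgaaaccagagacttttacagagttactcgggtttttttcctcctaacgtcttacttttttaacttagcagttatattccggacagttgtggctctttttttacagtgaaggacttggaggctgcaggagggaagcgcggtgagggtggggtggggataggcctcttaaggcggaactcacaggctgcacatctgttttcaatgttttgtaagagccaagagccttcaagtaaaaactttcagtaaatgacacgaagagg
Neither window held any of the motifs, hence no capitals, and a second Birc2 window held a p53 half-site. GC content was 67.0% in the Birc2 window and 43.0% in the Birc3 window, which belongs to 1 of several annotated Birc3 starts.

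**Figure D2:**
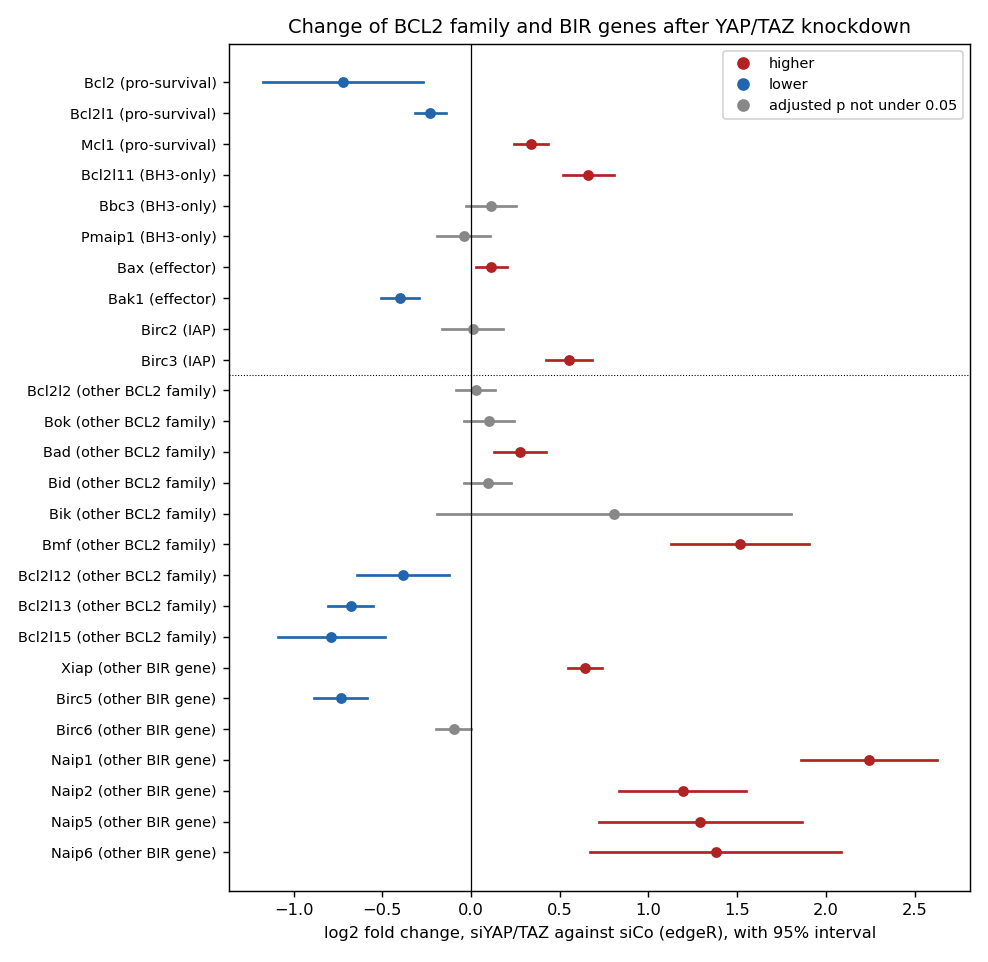
Fitted log2 fold change of siYAP/TAZ against siCo with its 95% interval, for the 10 genes above the dotted line and for the other tested BCL2 family and BIR genes below it (colour gives the call). The 10 lie between -0.72 for Bcl2 and 0.66 for Bcl2l11, and Bmf and Naip1 stand at 1.52 and 2.24.

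Birc2 and Birc3 lie beside Yap1, the gene that was knocked down. On chromosome 9 of mm10 Birc2 spans 7818227 to 7837064, Birc3 7848699 to 7873186 and Yap1 7931999 to 8004596, all on the minus strand. Within 300 kb of these genes 22 genes are annotated and 10 were tested, of which 3 were higher (Mmp27, Tmem123 and Birc3), Yap1 was lower and 6 did not pass. Since 27.6% of all genes tested were higher, 3 of 10 lies near that background. Tmem123, a cell surface protein, had 1566 and 1611 counts in siCo and 2321 and 2006 counts in siYAP/TAZ cells, and Mmp27, a matrix metalloproteinase, had 17 and 14 counts in siCo and 92 and 77 counts in siYAP/TAZ cells. Both siYAP/TAZ libraries were above both siCo libraries for each (log2 fold change 0.51 and 2.50, adjusted p = 3.44e-08 and 1.83e-07 from edgeR). Of those that did not pass, Gm10709 was called higher without siCo replicate 1 (log2 fold change 0.31, adjusted p = 0.00140 from edgeR). Cfap300 and Cep126, on the far side of Yap1, did not pass (adjusted p = 0.749 and 0.373 from edgeR).

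**Figure D3:**
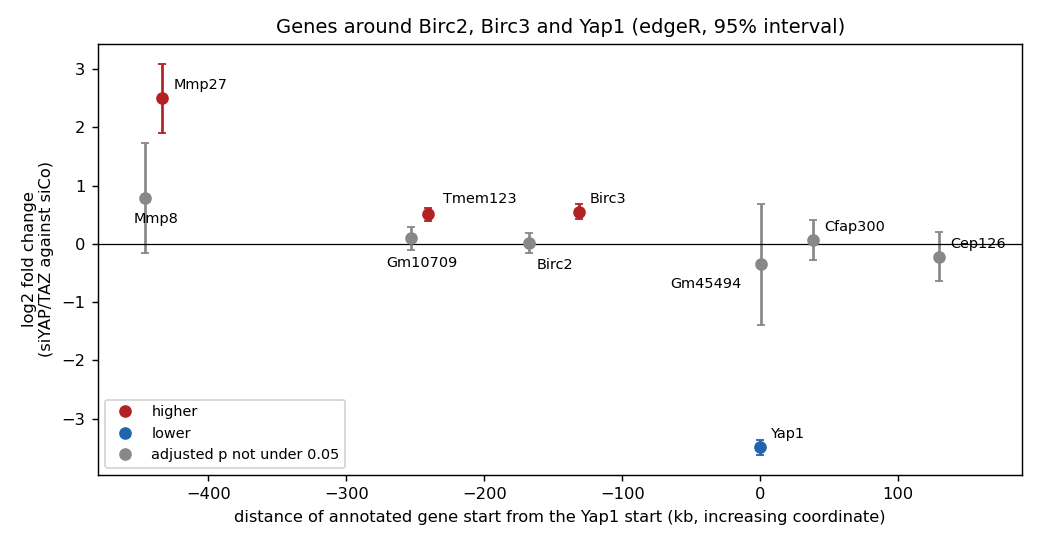
Log2 fold change with its 95% interval of the 10 tested genes within 300 kb of Birc2, Birc3 or Yap1, by distance of their annotated start from that of Yap1 in kb. Yap1 stands at -3.50, Birc3 and Tmem123 at 0.55 and 0.51, and the interval of Birc2 spans 0.

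Whether paired genes changed unequally was read from the ratio of their counts within each library, which no scaling affects. The log2 ratio of Mcl1 to Bcl2l1 went from -0.50 and -0.45 to 0.05 and 0.14, a difference of 0.57 (95% interval from 0.33 to 0.80). Mcl1 thus passed from fewer counts than Bcl2l1 in both siCo libraries to more in both siYAP/TAZ libraries. The log2 ratio of Bax to Bak1 went from 0.86 and 0.78 to 1.34 and 1.34, a difference of 0.52 (95% interval from 0.34 to 0.69). That of Birc2 to Birc3 went from -0.76 and -0.70 to -1.34 and -1.20, a difference of -0.54 (95% interval from -0.87 to -0.22). The groups did not overlap in these ratios, and the intervals did not include 0. The ratios rest on the same counts as the calls above and are not separate support for them.

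Pairs with Bcl2 were less certain. The log2 ratio of Bax to Bcl2 went from 5.55 and 5.50 to 6.57 and 6.17, a difference of 0.84 (95% interval from -0.01 to 1.69). For Bcl2 against Bcl2l1 the difference was -0.50 (95% interval from -1.45 to 0.46), and -0.28 without siYAP/TAZ replicate 1. Both intervals included 0. In a two-sided exact permutation test p was 0.333 for all 5 pairs, before and after adjustment over them, and no smaller value can be reached with 2 libraries a group.

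**Figure D4:**
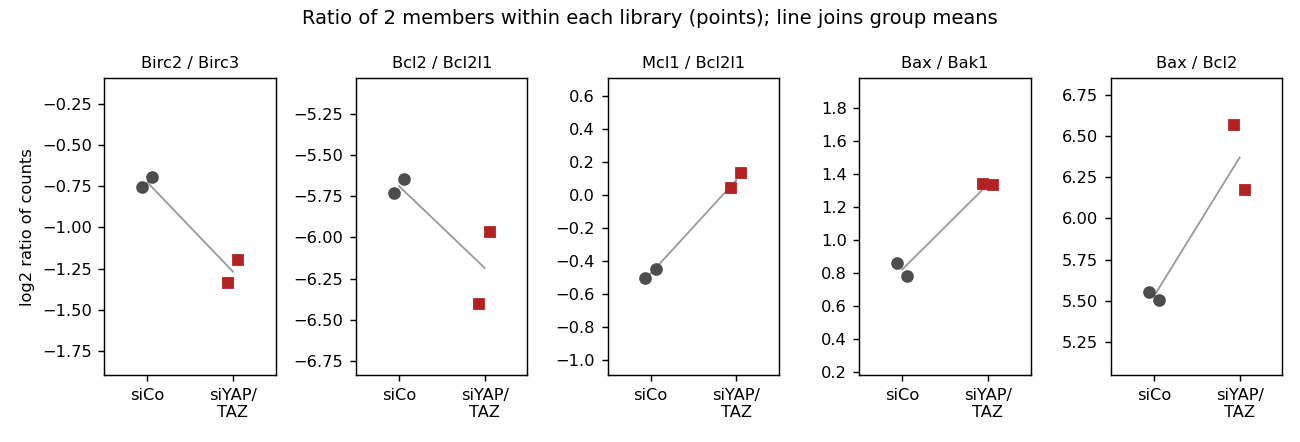
Log2 ratio of the counts of paired genes in each of the 2 siCo (circles) and 2 siYAP/TAZ libraries (squares), with a line between group means and the same span of log2 units in each panel. The ratio of Mcl1 to Bcl2l1 moved by 0.57, that of Bax to Bak1 by 0.52 and that of Birc2 to Birc3 by -0.54.

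The rest of the BCL2 family moved both ways as well. Of 15 other genes 9 were tested, and 2 were higher, 3 were lower and 4 did not pass. Over all genes tested, 27.6% were higher and 27.7% lower. Bmf, a BH3-only gene tied to the cytoskeleton, had 67 and 55 counts in siCo and 154 and 179 counts in siYAP/TAZ cells. Both siYAP/TAZ libraries had more than both siCo libraries (log2 fold change 1.52, standard error 0.186, adjusted p = 5.10e-07 from edgeR). Bad, a BH3-only gene under growth factor control, was at 14.3 and 15.3 FPKM in siCo and at 17.2 and 17.6 FPKM in siYAP/TAZ cells (log2 fold change 0.28, standard error 0.0702, adjusted p = 0.00202 from edgeR). Bcl2l13, a mitophagy receptor, was at 7.95 and 8.05 FPKM in siCo and at 4.71 and 4.99 FPKM in siYAP/TAZ cells (log2 fold change -0.68, standard error 0.0612, adjusted p = 5.04e-09 from edgeR). Bcl2l15 was also lower (log2 fold change -0.79), and so was Bcl2l12 (-0.38), whose call was lost in DESeq2 (adjusted p = 0.122), without siCo replicate 2 (log2 fold change -0.25) and without siYAP/TAZ replicate 1 (-0.34), each leaving 2 lower. Bcl2l2, Bok, Bid and Bik did not pass. The 6 that were not tested (3 Bcl2a1 genes, Bcl2l10, Bcl2l14 and Hrk) had at most 5 counts in a library.

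Genes with a BIR domain, which defines the IAP family, were mostly higher, largely through the Naip genes. Of 8 beside Birc2 and Birc3, 7 were tested, 5 were higher, Birc5 was lower and Birc6 did not pass. The background over all genes tested was 27.6% higher and 27.7% lower. With library totals Birc6 was called lower too (log2 fold change -0.14, adjusted p = 0.0156 from edgeR), which makes 2 lower. Xiap was at 11.97 and 12.2 FPKM in siCo and at 18.0 and 18.6 FPKM in siYAP/TAZ cells, with the groups well apart (log2 fold change 0.64, standard error 0.0468, adjusted p = 1.67e-10 from edgeR). Birc5, which encodes the mitotic protein survivin, was at 20.9 and 21.6 FPKM in siCo and at 13.5 and 11.3 FPKM in siYAP/TAZ cells (log2 fold change -0.73, standard error 0.0716, adjusted p = 1.67e-08 from edgeR). The other increases were in Naip genes, inflammasome sensors that carry BIR domains. Naip1 had 46 and 39 counts in siCo and 212 and 174 counts in siYAP/TAZ cells (log2 fold change 2.24), and Naip2, Naip5 and Naip6 had log2 fold changes from 1.19 to 1.38. The call of Naip6 was lost without siYAP/TAZ replicate 2 (1.04). These Naip genes lie close together on chromosome 13, and their changes need not be independent. They were scarce, down to Naip6 with 19 and 18 counts in siCo and 38 and 54 counts in siYAP/TAZ cells. Naip genes are near-copies, with 19.1% to 36.9% of the 50-base words of their transcripts found in other genes, and their counts are uncertain. Shared words also limit the counts of Bcl2l12 (24.6%), Bcl2l15 (19.6%) and Bad (17.2%) above, and less those of Bcl2l13 (7.1%).

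Downstream of the mitochondria, caspase genes were more often higher than lower. Of 10 genes for caspases and the apoptosome, 6 were higher, 1 was lower and 3 did not pass. For each list given here, the shares over all genes tested were 27.6% higher and 27.7% lower. Casp9, the initiator activated by the apoptosome, was at 4.89 and 5.12 FPKM in siCo and at 3.05 and 2.93 FPKM in siYAP/TAZ cells (log2 fold change -0.70, standard error 0.0941, adjusted p = 1.81e-06 from edgeR). Both siYAP/TAZ libraries were below both siCo libraries. Casp8, the initiator at death receptors, did not pass (adjusted p = 0.561 from edgeR). Of 6 mitochondrial and IAP antagonist genes, 2 were higher, 2 were lower and 2 did not pass. Xaf1, an antagonist of XIAP, rose from 34.6 and 32.7 FPKM to 45.5 and 48.8 FPKM (log2 fold change 0.53). Cycs, cytochrome c, was called higher (0.40) with overlapping groups, and its call was lost in 5 of 11 alternatives, each leaving 1 higher. Adjusted p was 0.221 in DESeq2, 0.0725 in edgeR with library totals and 0.2045 in limma, and the log2 fold change was 0.24 without siCo replicate 2 and 0.14 without siYAP/TAZ replicate 1. The call of Htra2 was lost without siYAP/TAZ replicate 2 (-0.19), leaving 1 lower, as in DESeq2, and other alternatives gave up to 3 lower. Of 8 genes for VDAC channels and mitochondrial dynamics, 5 were lower and 3 did not pass, with 3 to 7 lower under the alternatives. There were 3 lower in DESeq2 and without siCo replicate 2, siYAP/TAZ replicate 1 or siYAP/TAZ replicate 2, and 7 with library totals or without siCo replicate 1.

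Death receptor genes moved both ways. Of 14 tested, 7 were higher, 5 were lower and 2 did not pass, against 27.6% higher and 27.7% lower of all genes tested. Tnfsf10, the ligand TRAIL, rose from 0.784 and 0.832 FPKM to 2.15 and 2.25 FPKM (log2 fold change 1.49). Tnfrsf1b, a TNF receptor, rose from 42.9 and 43.6 FPKM to 73.7 and 74.1 FPKM (log2 fold change 0.82). In contrast, Tnfrsf12a, the TWEAK receptor, fell from 179.6 and 197 FPKM to 99.7 and 102 FPKM (log2 fold change -0.86), with no overlap between the groups.

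Since cIAPs act in NF-kB signalling, the genes of that pathway were counted too. Of 16 genes 5 were higher, 4 were lower and 7 did not pass. These counts lie near the 27.6% higher and 27.7% lower of all genes tested, and they varied. DESeq2 called 3 higher and 2 lower, limma called 3 higher, and edgeR called 6 lower with library totals and 1 lower without siYAP/TAZ replicate 2. Traf1, an adaptor that binds cIAPs, rose from 0.505 and 0.491 FPKM to 0.853 and 0.963 FPKM (log2 fold change 0.91). Tnfaip3, which encodes A20, fell from 18.5 and 20.8 FPKM to 13.3 and 13.9 FPKM (log2 fold change -0.49). Both are targets of NF-kB, and they moved in opposite directions. The part of NF-kB in the change of Birc3 was not tested. Nfkbia, the feedback inhibitor, was at 144 and 137 FPKM in siCo and at 131 and 135 FPKM in siYAP/TAZ cells and did not pass (adjusted p = 0.536 from edgeR). Map3k14, the kinase NIK, had a log2 fold change of -0.50, and its call was lost in DESeq2 (adjusted p = 0.0904) and without siYAP/TAZ replicate 2 (log2 fold change -0.45).

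Bax, Bbc3 and Pmaip1 are known p53 targets, and p53 with its other targets was more often lower than higher. Of 18 genes 10 passed as lower, 3 passed as higher and 5 failed the test, with a median log2 fold change of -0.17. Among all genes tested, 27.7% were lower and 27.6% higher. Trp53 itself fell from 50.5 and 51.1 FPKM to 42.2 and 42.8 FPKM (log2 fold change -0.21). Plk2, a kinase, fell from 73.1 and 82.1 FPKM to 34.0 and 34.4 FPKM (log2 fold change -1.14), and Trp53inp1 rose from 21.4 and 21.8 FPKM to 28.2 and 30.0 FPKM (log2 fold change 0.47). Cdkn1a, another p53 target, was called higher as well, at 199 and 206 FPKM in siCo and at 215 and 215 FPKM in siYAP/TAZ cells (log2 fold change 0.13). With library totals or in limma 2 genes of this list were higher, and Cdkn1a was not among them. Of 13 genes for the transcription of BH3-only genes and the turnover of MCL1, 7 were lower, 1 was higher (2 without siCo replicate 2 or with a minimum count of 50) and 5 did not pass. Atf4, a stress factor that drives Pmaip1, fell from 154 and 161 FPKM to 87.5 and 87.3 FPKM (log2 fold change -0.80), and Jun rose from 96.6 and 97.9 FPKM to 125 and 124 FPKM (log2 fold change 0.40).

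**Figure D5:**
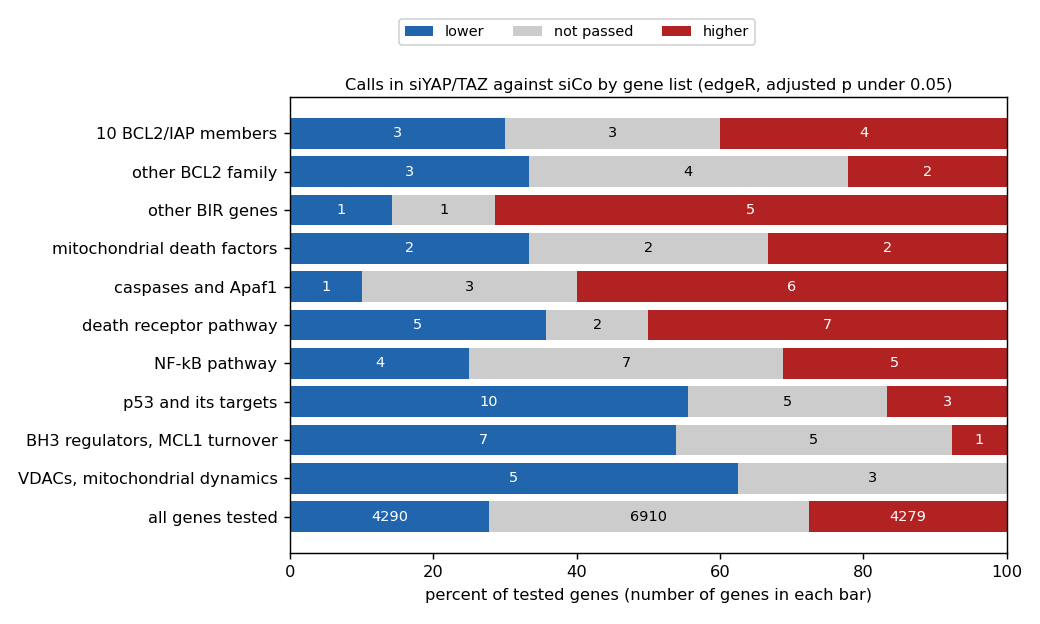
Share of tested genes that were lower, did not pass or were higher in siYAP/TAZ against siCo cells in each gene list, with the number of genes in each bar and all 15479 genes tested in the last bar. The 10 genes hold 3 lower and 4 higher, the other BIR genes 5 higher of 7, and the p53 list 10 lower of 18.

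Counts per gene do not tell isoforms apart, and some members have splice forms with opposed roles. GENCODE M21 gives Bcl2l1 8 protein-coding transcripts, Bcl2l11 5, Bax 5 and Mcl1 2. Of the 50-base words in their transcripts, the share found in another gene was 17.1% for Bak1, 8.51% for Bax, 7.56% for Birc3, 5.25% for Bcl2 and at most 1.49% for the others. Bak1 overlaps Ggnbp1 on the opposite strand, which had at most 34 counts in a library, and Bax overlaps Gm45808, which had at most 3. The strand setting of the counting is unknown.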

How the data were processed

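Of 6 samples in the series, 4 bulk RNA-seq libraries were used and the 2 single-nucleus samples were left out. The authors deposited raw counts and FPKM per Ensembl gene. Per the labels and methods, they trimmed reads with Trimmomatic, aligned them to mm10 with HISAT2 and counted uniquely mapped reads with featureCounts (versions and strand setting not given in the sources used here), which lowers counts of near-identical genes. FPKM were recomputed from counts, and equalled the deposited siCo FPKM within 0.005 for all 55573 genes. The 2 siYAP/TAZ FPKM columns were not used, because column names give the group but no single sample, and replicate numbers of that group follow column order. Rows without a gene name (57) held 0 counts. Between libraries of 1 group, chi-square per gene was 3.17 (siCo) and 1.95 (siYAP/TAZ), above sampling noise.

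The test was glmQLFTest of edgeR 4.0.16 under R 4.3.3, after TMM and filterByExpr (minimum count 10), with 18.6 prior and 2 residual degrees of freedom. A standard error is the absolute log2 fold change over the square root of F. Pair ratios used counts + 0.5 and a least-squares interval. Alternatives were DESeq2 1.42.0, RLE and library-total scaling, no filter or a minimum count of 50, robust dispersion, limma 3.58.1 on log2(FPKM + 1), counts + 5 for pairs and leaving out each library. Scripts were tested on simulated data. Members and lists were chosen with earlier results of these data known. Named genes are the members, Yap1 and Wwtr1, the other BCL2 and BIR genes, genes within 300 kb of Birc2, Birc3 or Yap1, and up to 4 genes per other list with the largest change past the threshold. Casp8, Foxo1, Foxo3, Nfkbia, Trp53, Cdkn1a, Mlkl and Ripk3 were chosen after their values were seen. The result of 1 gene is not reported here. GENCODE M21 holds 99.83% of the gene identifiers. Tables and plots used pandas 2.3.3, scipy 1.17.1 and matplotlib 3.10.9 (Python 3.11.15).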

Additional observations from a re-analysis of the deposited data

How the results depend on the processing

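Under every alternative 3 or 4 members were called higher and 2 or 3 lower. Of 110 values for single members under the alternatives, 96 kept their direction and side of the threshold. Mcl1, Bcl2l11, Birc3, Bcl2l1 and Bak1 were called in all 11 alternatives, Bcl2 in 9 and Bax in 5. Over all genes, 3042 to 4298 were higher and 3134 to 4809 lower, the fewest in DESeq2. Among the genes followed under the alternatives, changes of sign were limited to genes that did not pass the test. Those chosen after their values were seen, Trp53, Mlkl and Ripk3 among them, were not followed there. With library totals the log2 fold change was -0.0349 for Birc2 and -0.0171 for Bcl2l2, and in limma on log2(FPKM + 1) it was -0.0293 and -0.0156. Leaving out single libraries gave -0.0273 to 0.0576 for Birc2, -0.0187 to 0.0756 for Bcl2l2, -0.154 to 0.0808 for Pmaip1, -0.0881 to 0.312 for Gm10709, -0.861 to 0.336 for Gm45494 and -0.0938 to 0.248 for Cfap300, and Gm10709 was called at the upper end of its range. The cause was not tested. No paired analysis was possible because the siYAP/TAZ columns carry no sample number. Depth limits Bcl2, whose counts of 48 to 94 leave a wide interval.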

Other observations

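Genes of other death pathways were measured too. Mlkl, which executes necroptosis, was at 61.3 and 63.0 FPKM in siCo and at 83.9 and 85.1 FPKM in siYAP/TAZ cells (log2 fold change 0.49, standard error 0.0451, adjusted p = 7.20e-09 from edgeR). Ripk3, the kinase that activates it, was at 62.0 and 59.3 FPKM in siCo and at 51.5 and 50.5 FPKM in siYAP/TAZ cells (log2 fold change -0.20, standard error 0.0476, adjusted p = 0.000947 from edgeR). The groups overlapped for neither gene, and the genes moved in opposite directions. Of the inflammatory caspases, Casp4 rose from 17.9 and 17.5 FPKM to 33.6 and 34.6 FPKM (log2 fold change 0.99) and Casp1 rose from 1.51 and 1.41 FPKM to 2.60 and 2.75 FPKM (log2 fold change 0.91), higher in both siYAP/TAZ libraries than in both siCo libraries.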
